A study of Bos taurus with 6 samples.

Results

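Interferon-stimulated genes and their regulators were followed in cattle cumulus cells, which surround and nourish the oocyte in its follicle. The genes were fixed as a list of 47 symbols, in which DDX58 and RIGI name the same gene, so that 46 genes were listed. A probe set with a single gene symbol was found for 36 of them (52 probe sets), out of 9155 genes with a single symbol and 24016 probe sets in all. The other 11 symbols (ISG20, IRF1, IFIT1, IFIT3, IFIH1, DDX58, RIGI, OAS1Y, OAS2, BST2 and IFNGR1) are not analysed here.

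RNA from pooled cumulus cells was hybridised to 6 Affymetrix bovine arrays. The large_follicle group (3 arrays) came from cumulus-oocyte complexes of follicles of 8 mm or more, which the submitters call competent, and the small_follicle group (3 arrays) from follicles of 1 to 3 mm, called incompetent. All complexes were taken from ovaries of slaughtered crossbred cows (Bos indicus x Bos taurus). They had compact cumulus and were stripped of it by pipetting, so the groups share the stated breed, source and protocol. Whether they also shared collection days or array batches was not tested. How many cows stand behind each pool, and their age, is not stated in the labels, and p-values therefore measure the spread between these pools. The question is how cumulus gene expression varies with follicle size, which the labels tie to oocyte competence.

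Interferons are cytokines that cells release on sensing viral nucleic acid. Type I interferons bind a receptor made of IFNAR1 and IFNAR2, interferon gamma binds IFNGR1 and IFNGR2, and the receptors' JAK kinases then activate STAT proteins. STAT2 and IRF9 act in the transcription factor ISGF3, which switches on interferon-stimulated genes through a promoter element shared by many of them. In ruminants the same genes are known for their rise in the uterus and in circulating leukocytes under interferon tau, the signal of the early conceptus.

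Interferon genes as a group lay higher in cumulus cells of large follicles. Each gene was read from its probe set with the highest mean, as log2 signal, and differences are large_follicle minus small_follicle from limma, with p-values adjusted over the whole array by the Benjamini-Hochberg method. At an adjusted p under 0.05, 10 of 36 members were higher (27.8%), 0 were lower and 26 did not pass, where 7.08% of all genes were called higher and 8.3% lower. At an unadjusted p under 0.05, 17 members were higher and 0 lower. The 10 that rose were ISG15, IFI6, IRF9, MX1, TRIM25, EIF2AK2, PARP9, IRF7, RSAD2 and IFIT5. Because these are pools of whole cumulus tissue, fewer cells of a type and less RNA per cell cannot be told apart.

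The median difference of the 36 members was 0.31, against 0.01 over all 9155 genes, and 34 of 36 were positive in sign (94.4%, against 51.4% of all genes). All 3 large-follicle arrays read above all 3 small-follicle arrays in 20 members and below them in 0, where 17.6% of all genes were separated upward and 18.9% downward. A called difference of at least 2-fold was found in 5 members, ISG15, IFI6, IRF9, MX1 and TRIM25, and in 1.56% of all genes. These counts describe a list that was chosen with earlier results of these data known, and no test was made on the list itself.

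**Figure D1:**
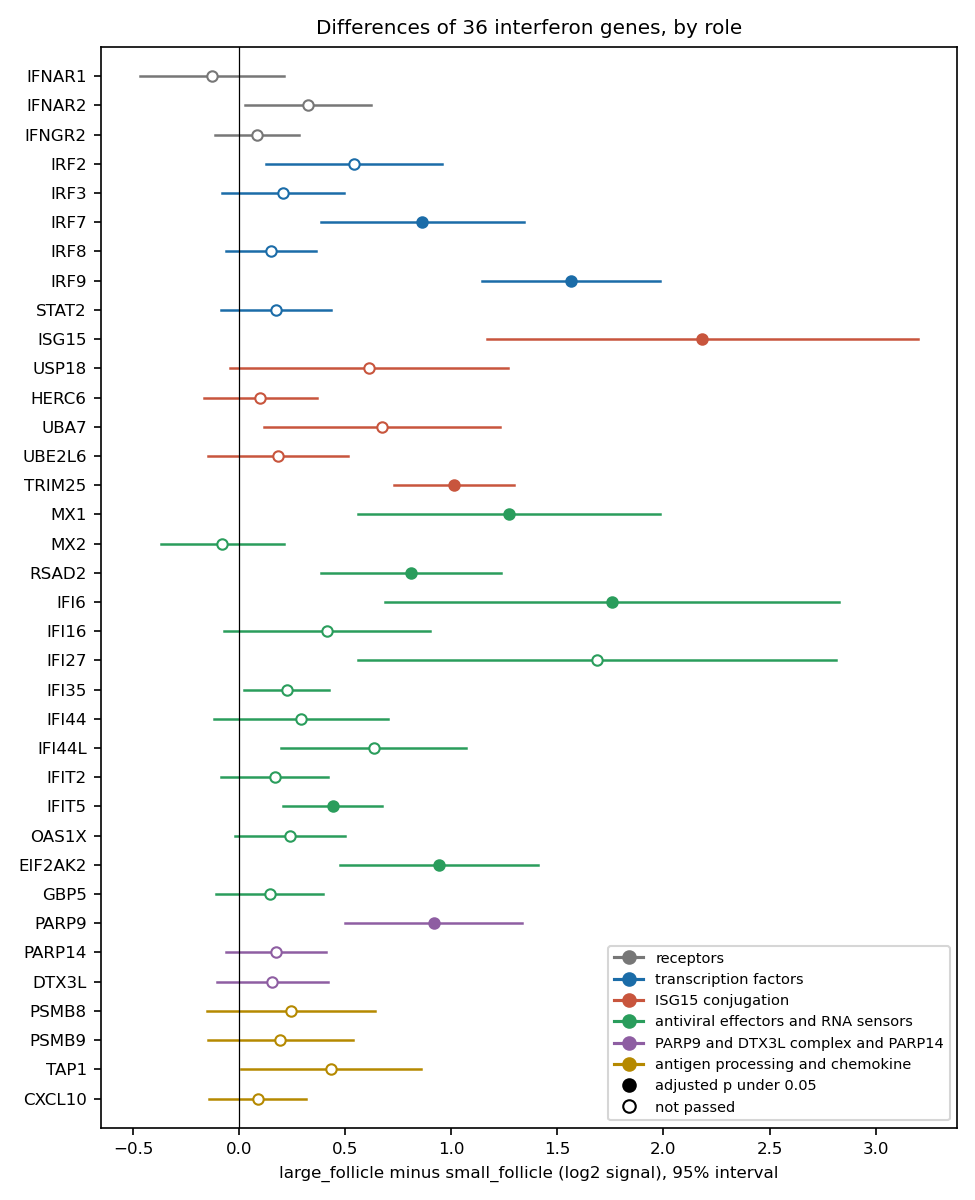
Difference between groups (x axis, log2 signal, large_follicle minus small_follicle) for each of 36 genes (y axis), with the 95% interval from limma, colours for roles, and filled points for an adjusted p under 0.05. The filled points run from 0.44 for IFIT5 to 2.18 for ISG15, and only IFNAR1 and MX2 lie below 0.

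The receptors had the lowest median difference of the role groups, 0.08. Of 3 measured, 0 passed and 1 (IFNAR2) had an unadjusted p under 0.05. IFNAR2, a chain of the type I receptor, read 7.97, 8.16 and 8.26 in large-follicle replicates 1, 2 and 3 and 7.91, 7.58 and 7.92 in small-follicle replicates 1, 2 and 3, an order of replicates kept in what follows. These groups do not overlap, but the closest arrays are 7.97 and 7.92, and the difference of 0.33 ± 0.13 (log2 ± SE, 95% interval 0.03 to 0.62) gave an adjusted p of 0.148. IFNAR1, the other chain, read 3.47, 3.56 and 3.36 against 3.27, 3.68 and 3.82, overlapping values at a mean signal under the lower quartile of all probe sets (3.83), with a difference of -0.13 ± 0.15. IFNGR2, the accessory chain of the interferon gamma receptor, read 9.26, 9.24 and 9.26 against 9.19, 9.19 and 9.13. The groups are apart by a narrow margin, and the interval of the difference, -0.11 to 0.28, includes 0. A dimmer IFNGR2 probe set read -0.08 ± 0.11, with overlapping groups.

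Among the transcription factors IRF9 and IRF7 rose, and the partner of IRF9 did not pass. IRF9, the DNA-binding subunit of ISGF3, read 7.75, 7.68 and 8.16 in large-follicle arrays and 5.95, 6.53 and 6.42 in small-follicle arrays. The lowest large-follicle array exceeded the highest small-follicle array by more than the range within either group. The difference was 1.56 ± 0.18, or 2.96-fold, with an adjusted p of 0.00219, and it passed in each of the 6 fits that left out 1 array, with differences from 1.39 to 1.68. STAT2, which joins IRF9 in ISGF3, read 6.34, 6.45 and 6.20 against 6.14, 6.03 and 6.30, with a difference of 0.17 ± 0.11 (adjusted p = 0.385). Its groups overlap, since large-follicle replicate 3 lies below small-follicle replicate 3.

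IRF7, the factor that amplifies type I interferon production and is itself interferon-inducible, read 6.85, 6.92 and 7.69 against 6.20, 6.29 and 6.38. All large-follicle arrays were higher, replicate 3 by far the most. The difference was 0.86 ± 0.21 (1.82-fold, adjusted p = 0.0311), and the call was lost without small-follicle replicate 1 (0.82), 2 (0.86) or 3 (0.91). The other probe sets of IRF7 are dimmer and read 0.24 ± 0.14 and 0.16 ± 0.14, neither of which passed.

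The remaining factors did not pass. IRF2, which competes with IRF1 at the same promoter elements, read 4.96, 5.37 and 5.13 against 4.22, 4.83 and 4.79, without overlap, and its difference of 0.54 ± 0.18 did not pass (adjusted p = 0.0936). A dimmer IRF2 probe set read -0.08. IRF3, which is activated by phosphorylation downstream of nucleic acid sensors, read 8.74, 8.74 and 9.12 against 8.58, 8.69 and 8.71, a difference of 0.21 ± 0.13. IRF8, a factor of myeloid cells, read 6.99, 7.02 and 7.04 against 6.97, 6.81 and 6.82, a difference of 0.15 ± 0.09. Neither IRF3 nor IRF8 passed, although their groups do not overlap. A dimmer IRF8 probe set read 0.27 ± 0.17, with overlapping groups.

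ISG15 is a ubiquitin-like protein that is attached to other proteins by its own enzyme chain, the activating enzyme UBA7, the conjugating enzyme UBE2L6 and ligases such as HERC6 and TRIM25, and is removed by the protease USP18. Of these 6 genes, ISG15 and TRIM25 rose and 4 did not pass. ISG15 had the largest difference of all members. It read 9.57, 9.33 and 11.17 in large-follicle arrays and 7.36, 8.13 and 8.03 in small-follicle arrays. The groups are far apart, and large-follicle replicate 3 stands well above its own group. The means were 10.02 ± 1.00 and 7.84 ± 0.42 (SD, n = 3 each), 4.54-fold higher in large-follicle arrays, with a difference of 2.18 ± 0.44 and an adjusted p of 0.0163. The call was lost without small-follicle replicate 1 (1.94, adjusted p = 0.0551) and held when any other array was left out, where the difference went from 1.61 to 2.53.

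TRIM25, a ubiquitin and ISG15 ligase that also activates the RNA sensor RIG-I, read 10.27, 10.35 and 10.59 against 9.23, 9.53 and 9.41. No array stood apart from its group. The difference of 1.01 ± 0.12 (2.02-fold, adjusted p = 0.00258) passed in all 6 fits with 1 array left out, from 0.92 to 1.08. UBA7, the first enzyme of the chain, read 6.92, 6.82 and 7.71 against 6.19, 6.48 and 6.76, again with large-follicle replicate 3 highest. Its difference of 0.67 ± 0.24 did not pass (adjusted p = 0.115), and without that replicate and small-follicle replicate 1 it was 0.25. 

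UBE2L6 did not pass at either probe set, at 0.18 ± 0.14 for the brighter and 0.46 ± 0.15 for the other (adjusted p = 0.0807). HERC6 differed by 0.10 ± 0.12 at a signal below the lower quartile. USP18, the protease that removes ISG15 and also damps signalling at IFNAR2, differed by 0.61 ± 0.29 at its brightest probe set, where large-follicle replicate 3 read 7.84 and the other 5 arrays lay between 6.39 and 7.04. Its 3 further probe sets read 0.19, 0.52 and 0.36, and none passed. The listed enzymes and the protease of the chain were thus positive in sign, without a call for any but TRIM25. HERC5, a further ISG15 ligase that is not a member, differed by -0.26 ± 0.18 with overlapping groups and did not pass (adjusted p = 0.411).

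**Figure D2:**
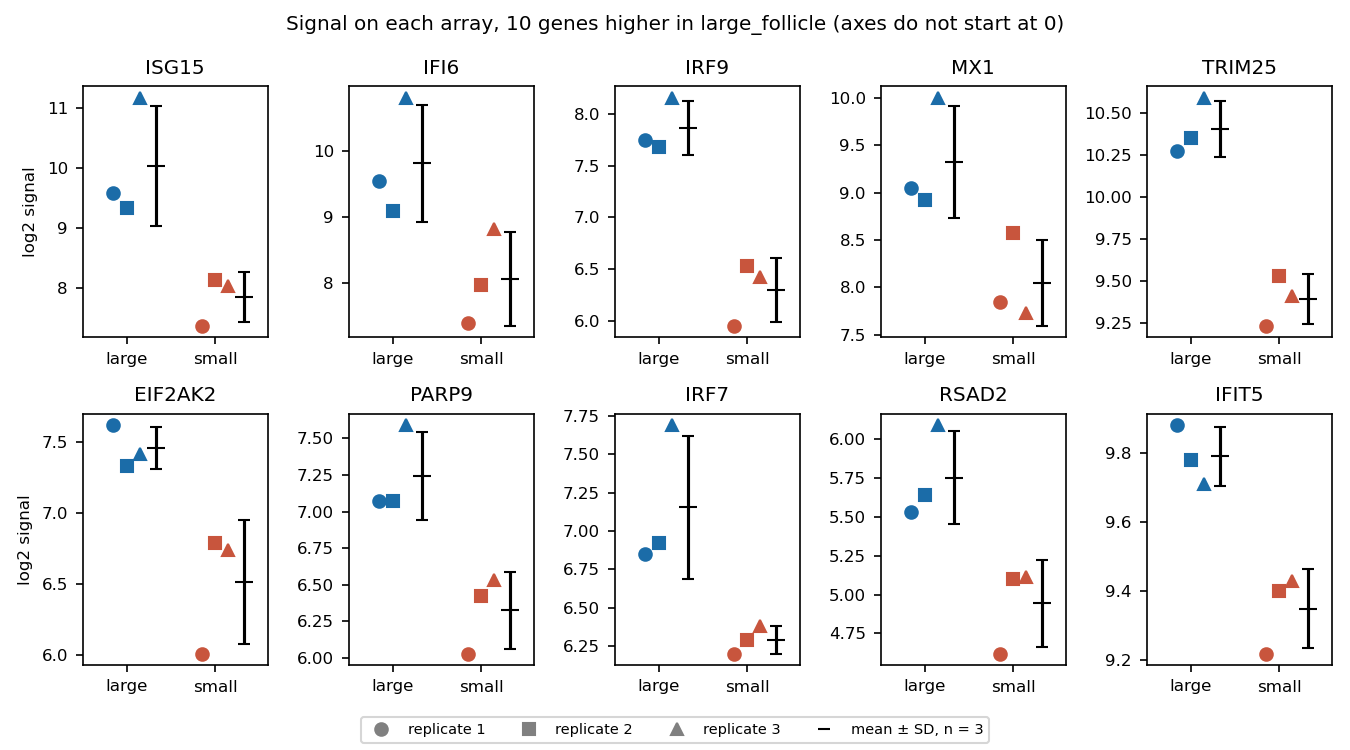
Log2 signal (y axis, a separate range for each gene) in the 3 large-follicle (blue) and 3 small-follicle arrays (red) for the 10 called genes, with marker shapes for replicates and bars for the mean ± SD (n = 3). The groups are apart in every panel, large-follicle replicate 3 is the highest array in 8 panels, and small-follicle replicate 1 is the lowest in 9.

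The antiviral effectors and RNA sensors, the role with the most genes measured, held 5 calls of 14 (35.7%, against 7.08% of all genes), with 0 lower. The share was 33.3% in the transcription factors, in the ISG15 chain and in PARP9, DTX3L and PARP14. IFI6, a mitochondrial and endoplasmic reticulum protein that restricts flaviviruses, read 9.54, 9.09 and 10.81 against 7.39, 7.97 and 8.81. Replicates 3 of both groups were the highest of their group, and the gap between the closest arrays, 9.09 and 8.81, is small beside the spread within groups. The difference was 1.76 ± 0.47 (3.38-fold, adjusted p = 0.0432). It was lost without large-follicle replicate 1 (1.89) or 3 (1.26) and without small-follicle replicate 1 (1.42) or 2 (1.71). IFI27, a related short hydrophobic protein of mitochondria, read 9.73, 9.36 and 10.90 against 7.28, 8.72 and 8.93 and had nearly as large a difference, 1.69 ± 0.49. The groups do not overlap, but the adjusted p of 0.0596 missed the threshold, with SDs of 0.80 and 0.90 within the groups.

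MX1, a dynamin-like GTPase that blocks viral replication, read 9.05, 8.92 and 10 in large-follicle arrays and 7.85, 8.57 and 7.73 in small-follicle arrays. Here small-follicle replicate 2 came closest to the large-follicle arrays. The difference was 1.27 ± 0.31 (2.42-fold, adjusted p = 0.0322), and the call was lost without large-follicle replicate 1 (1.41) or 3 (0.94) and without small-follicle replicate 1 (1.17) or 3 (1.11). MX2, its neighbour in the genome and also an interferon-induced GTPase, read 4.43, 4.01 and 4.35 against 4.36, 4.40 and 4.27. These groups overlap fully, and the interval of the difference, -0.37 to 0.21, lies below the whole interval of MX1, 0.56 to 1.99, though the difference between the genes was not tested.

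EIF2AK2, the double-stranded RNA-activated kinase PKR that halts translation, read 7.62, 7.33 and 7.42 against 6.01, 6.79 and 6.74. Its large-follicle arrays were close together and small-follicle replicate 1 lay well below the rest. The difference was 0.94 ± 0.20 (1.92-fold, adjusted p = 0.0207), lost without large-follicle replicate 1 (0.86) or 3 (0.96). A second EIF2AK2 probe set, dimmer, read in the opposite direction at -0.33 ± 0.20 and did not pass. Averaged over both probe sets the difference was 0.31, without a call, so the value rests on the choice of probe set.

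RSAD2 (viperin), a radical SAM enzyme that makes a chain-terminating nucleotide, read 5.53, 5.64 and 6.09 against 4.62, 5.10 and 5.11. The groups are apart, with the highest and the lowest array in the same replicates as for ISG15. The difference was 0.81 ± 0.18 (1.75-fold, adjusted p = 0.0252), and it did not pass without large-follicle replicate 2 (0.87) or 3 (0.64) or without small-follicle replicate 1 (0.65) or 2 (0.89). IFIT5, which binds the 5′ end of foreign RNA, had a small but even difference. It read 9.88, 9.78 and 9.71 against 9.22, 9.40 and 9.43, with large-follicle replicate 3 the lowest of its group. The difference was 0.44 ± 0.10 (1.36-fold, adjusted p = 0.0275), lost without large-follicle replicate 1 (0.40) or 2 (0.45) and without small-follicle replicate 1 (0.38) or 2 (0.47). IFIT2, of the same family, differed by 0.17 ± 0.11 and did not pass.

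Other effectors did not pass. IFI35, a partner of NMI in the cytosol, read 7.20, 7.21 and 7.19 against 6.94, 6.97 and 7.02. Its replicates were among the most even of all members, and the groups do not overlap, but the difference of 0.22 ± 0.09 was small (adjusted p = 0.14). IFI44L read 4.79, 4.53 and 5.34 against 4.31, 4.29 and 4.16, without overlap, and its difference of 0.63 ± 0.19 (adjusted p = 0.0654) passed only in the fit without large-follicle replicate 2 among those that left out 1 array (0.81), and without large-follicle replicate 3 it was 0.41. Its neighbour IFI44 read between 0.17 and 0.44 at 4 probe sets, all of which average below the lower quartile. The DNA sensor IFI16, also at a signal below the lower quartile, differed by 0.41 ± 0.21 with overlapping groups, and passed without small-follicle replicate 3 (0.65), while without large-follicle replicate 3 it was 0.28. OAS1X, of the family that activates RNase L, differed by 0.24 ± 0.11. GBP5, a GTPase induced mainly by interferon gamma, read 0.14 ± 0.11 at its brightest probe set.

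PARP9 and DTX3L form a complex that promotes interferon responses, and PARP14 is a related ADP-ribosyltransferase. In the RefSeq order of ARS-UCD2.0 the 3 genes follow one another with 0 protein-coding genes between them, and 1 of them rose. PARP9 read 7.07, 7.07 and 7.59 against 6.03, 6.42 and 6.53, a clear gap with large-follicle replicate 3 highest. The difference was 0.92 ± 0.18 (1.89-fold, adjusted p = 0.0148), and it passed in all 6 fits that left out 1 array, from 0.74 to 1.02. PARP14 read 7.11, 7.14 and 7.34 against 6.96, 7.02 and 7.09, a gap of the closest arrays of only 7.11 against 7.09. Its difference was 0.17 ± 0.10, and that of DTX3L, with overlapping groups, 0.16 ± 0.11. Neither passed, and the interval of DTX3L (-0.10 to 0.42) lies below that of PARP9 (0.50 to 1.33). Whether adjacent genes differ in their response was not tested.

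Genes of antigen processing and the chemokine CXCL10 held no call. Of 4 measured, 0 passed limma's adjusted threshold and 1 (TAP1) had an unadjusted p under 0.05. PSMB8 and PSMB9 are catalytic subunits of the immunoproteasome and TAP1 carries peptides into the endoplasmic reticulum, and these 3 genes lie next to one another in the RefSeq order. TAP1 differed by 0.43 ± 0.19 (adjusted p = 0.177) and passed without large-follicle replicate 2 (0.64), while without large-follicle replicate 3 it was 0.25 (adjusted p = 0.399). PSMB8 differed by 0.24 ± 0.17 and PSMB9 by 0.19 ± 0.15, and without large-follicle replicate 3 and small-follicle replicate 1 they were -0.04 and -0.03. CXCL10, a chemokine strongly induced by interferon gamma, averaged 2.94 against 2.85, both below the lower quartile, with a difference of 0.09 ± 0.10.

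For 9 members the arrays carry more than 1 probe set. Of the 16 further probe sets, 1 was higher, 0 were lower and 15 did not pass, where 5.72% of all probe sets were called higher and 7.16% lower, and 13 were positive in sign. The one that passed belongs to GBP5, at 4.20, 4.03 and 3.68 against 3.12, 3.08 and 3.19 (0.84 ± 0.14, adjusted p = 0.00744). Its groups are apart, but its mean signal of 3.55 is below the lower quartile, and the brightest GBP5 probe set overlaps. ISG15, IRF9, MX1, TRIM25, PARP9, RSAD2, IFI6 and IFIT5 were each read by 1 probe set, so their values have no second reading on the array.

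The members shared an order of arrays. Large-follicle replicate 3 was the highest of the 6 arrays in 26 of 36 members (72.2%), against 21.1% of all genes, and small-follicle replicate 1 was the lowest in 22 (61.1%), against 17.7% of all genes. Among all 648 genes called higher, large-follicle replicate 3 was highest in 32.4% and large-follicle replicate 2 in 46.5%, while small-follicle replicate 1 was lowest in 55.6%. Large-follicle replicate 3 exceeded the mean of the other large-follicle arrays by a median of 0.26 over the members, against 0.04 over all genes, and by at least 0.5 in 12 of 36 members (33.3%), against 2.33% of all genes. The excess was 1.72 for ISG15, 1.06 for USP18, 0.84 for UBA7 and 0.81 for IRF7. It was absent in EIF2AK2 (-0.06), IFIT5 (-0.12), STAT2 (-0.20) and IFI35 (-0.02).

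**Figure D3:**
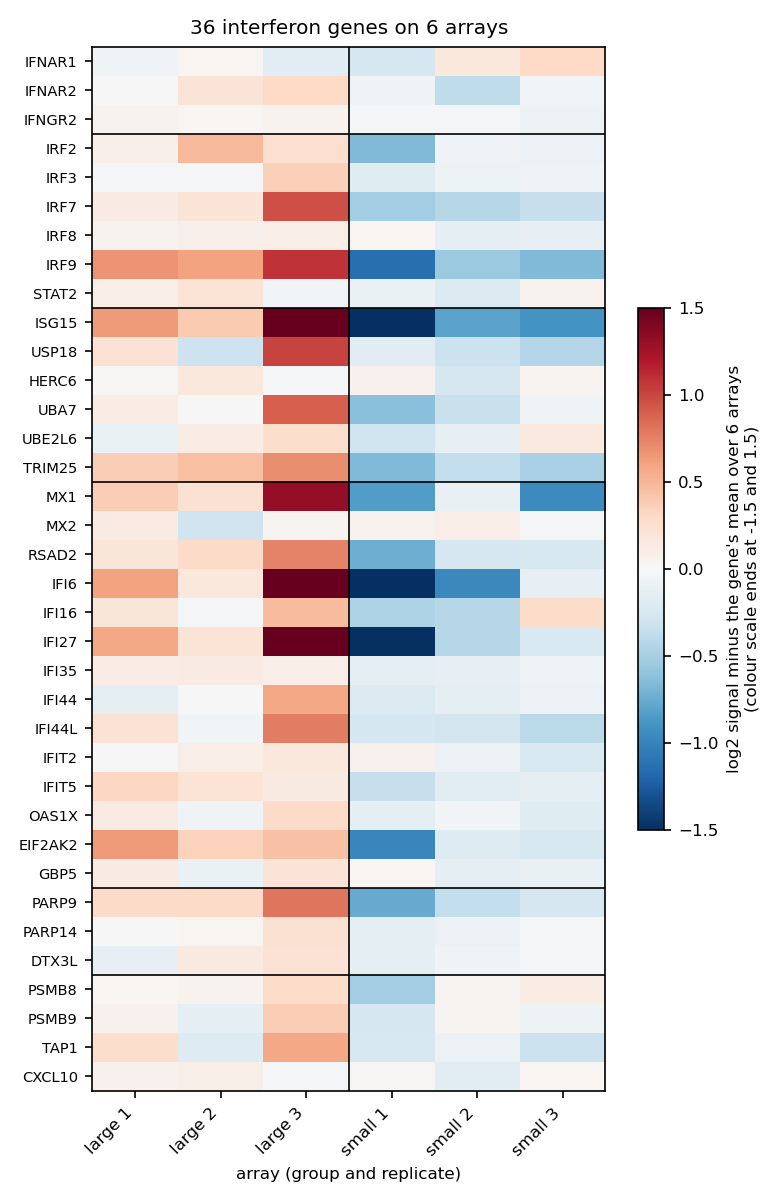
Log2 signal of each of 36 genes (rows, grouped by role) on each array (columns), minus the gene's mean over 6 arrays, with red for higher and blue for lower. The deepest red falls in large-follicle replicate 3 and the deepest blue in small-follicle replicate 1, most of all in ISG15, IFI6 and IFI27.

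Mean deviation from the mean of all arrays put numbers to this order. Over the 36 members it was 0.17, 0.11 and 0.54 in large-follicle replicates 1, 2 and 3 and -0.43, -0.22 and -0.17 in small-follicle replicates 1, 2 and 3. All large-follicle arrays lay above all small-follicle arrays. Leaving out large-follicle replicate 3 left 6 members called higher (5.49% of all genes) and a median difference of 0.24, and leaving out small-follicle replicate 1 left 4 (4.49% of all genes) and 0.27. Without large-follicle replicate 1 or small-follicle replicate 2, 6 members were called (4.43% and 4.27% of all genes). With both large-follicle replicate 3 and small-follicle replicate 1 left out, a fit chosen after seeing the data, 5 members were called against 3.26% of all genes: IRF9 (1.24), ISG15 (1.37), TRIM25 (0.84), EIF2AK2 (0.71) and PARP9 (0.60). The differences of ISG15, PARP9, IFI6 (0.93), MX1 (0.84), IRF7 (0.55) and RSAD2 (0.48) were then smaller by over 1.5 times, and all 10 kept a positive sign, which the gap between the groups fixes.

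Other genes of the interferon pathway were read from lists of 129 symbols that share no gene with the members. Like the members, these lists were chosen with earlier results of these data known, and no test was made on them. Of 64 measured, 15 were higher (23.4%, against 7.08% of all genes), 0 lower and 49 did not pass, with a median difference of 0.21, and at an unadjusted p under 0.05 26 were higher and 2 lower. Most calls were in further interferon-stimulated genes, 8 of 23 (34.8%), the list with the most genes measured. XAF1, which promotes apoptosis, read 6.91, 7.10 and 7.57 against 4.82, 6.27 and 6.24, a difference of 1.42 ± 0.37, and IFITM1, which blocks viral entry, rose by 1.30 ± 0.23. PARP12 rose by 1.28, RTP4 by 1.15, EPSTI1 by 1.03, NMI by 0.83 and TDRD7 by 0.43. SAMD9 (0.50), ZNFX1 (0.48) and WARS1 (-0.26) did not pass. IFI30, a lysosomal thiol reductase of antigen-presenting cells, read 7.23, 7.19 and 6.78 against 4.96, 5.82 and 5.66 and rose by 1.59 ± 0.23, with large-follicle replicate 3 the lowest of its group. The mean deviation of these 23 genes was again highest in large-follicle replicate 3 (0.37) and lowest in small-follicle replicate 1 (-0.46). The other pathway lists had another order, with nucleic acid sensing (0.21), the JAK-STAT arm (0.15) and the ligands (0.12) highest in large-follicle replicate 1 and antigen processing in small-follicle replicate 3 (0.12).

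Upstream of the interferon-stimulated genes, 3 of 12 measured genes of nucleic acid sensing rose (25%, against 7.08% of all genes). DHX58 (LGP2), a regulator of the RNA sensors that is itself interferon-inducible, read 7.41, 7.33 and 7.65 against 6.38, 6.34 and 6.69, a clear gap and a difference of 0.99 ± 0.13 (adjusted p = 0.00335). The adaptor ligase TRAF6 rose by 0.56 and TRAF3 by 0.33. MAVS, the mitochondrial adaptor of the RNA sensors, at 0.32, TRIM21 at 0.40 and IRF5 at 0.29 did not pass. In the JAK-STAT arm 3 of 14 rose (21.4%, against the same 7.08%). These were STAT3, a factor of cytokine and growth factor signalling, by 0.83 ± 0.10, the STAT inhibitor PIAS1 by 0.48 and the kinase JAK1 by 0.44. STAT6 (0.27), IL10RB (0.14) and PTPN1 (0.16) did not pass.

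The interferon genes that were measured gave no call. Of 21 ligand symbols listed, 4 were measured (IFNAC, IFNT2, IFNB1 and IFNG). Of these limma called 0, and 0 had an unadjusted p under 0.05. IFNB1 read 2.69, 2.56 and 2.60 against 2.61, 2.86 and 2.71, and IFNG 2.83, 2.39 and 2.53 against 2.45, 2.53 and 2.64. Both overlap between groups at signals below the lower quartile, where these arrays cannot tell low expression from none. IFNAC differed by 0.21 and IFNT2 by 0.28, without a call, and the probe sets of these multigene families can read several copies. The groups of IFNAC do not overlap, with closest arrays of 4.74 and 4.71, and those of IFNT2 do. Of 11 further genes of antigen processing, 1 rose, TAPBPL by 0.47, a share of 9.09% near the 7.08% of all genes. B2M (0.38), PSME2 (0.36) and PDIA3 (-0.23) did not pass.

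**Figure D4:**
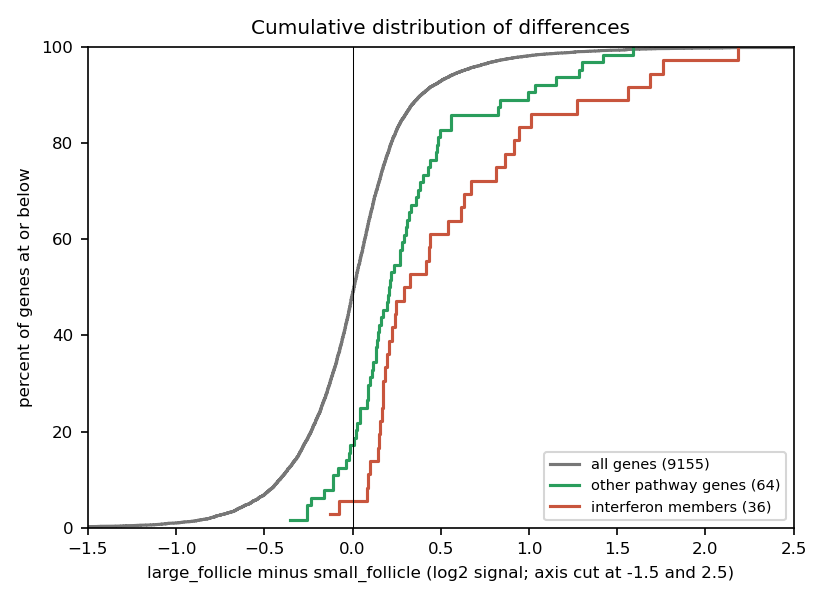
Percent of genes (y axis) with a difference at or below the value on the x axis (log2, large_follicle minus small_follicle) for 36 interferon members, 64 other pathway genes and all 9155 genes. The curve of all genes crosses the middle near 0.01, that of the other pathway genes at 0.21 and that of the members at 0.31.

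The labelled cell type was checked against its markers. Of 12 measured markers of granulosa and cumulus cells, 11 averaged above the median of probe set means (5.67). Between the groups 7 rose (INHBA, CYP11A1, CYP19A1, GATA4, NR5A2, INHA and FSHR) and 1 fell (GATM). That is 58.3% higher, against 7.08% of all genes. No marker of the oocyte (7 measured), endothelium (6) or red blood cells (3) averaged above that median, and of these only the endothelial TEK was called (-0.57), while 2 of 5 theca markers did, INSL3 and ACTA2, without a call. Arrays correlated at 0.9927 to 0.9948 within groups and 0.9817 to 0.9879 across groups.

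Leukocytes also express interferon-stimulated genes. Of 27 leukocyte markers measured, 2 rose, LCP1 by 0.89 and CORO1A by 0.62, 0 fell and 25 did not pass. That is 7.41% higher, against 7.08% of all genes. Their median difference was 0.16, 23 of 27 were positive (51.4% of all genes were), 2 averaged above the median of probe set means and 8 below the lower quartile. RMA gives no values of 0, so none is at 0. Their mean deviation ran from -0.06 to 0.49 in large-follicle arrays and from -0.32 to 0.06 in small-follicle arrays, which overlap.

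LCP1, an actin-bundling protein of leukocytes, read 5.17, 4.84 and 4.32 in large-follicle replicates 1, 2 and 3 and 3.69, 3.68 and 4.30 in small-follicle replicates 1, 2 and 3, and CORO1A, an actin regulator, 4.55, 4.23 and 4.11 against 3.58, 3.49 and 3.95. Neither overlaps between groups. As a mean, leukocyte markers were highest in large-follicle replicate 1 (0.49) and at -0.06 in large-follicle replicate 3, where the interferon members were highest (0.54). CD14 read 6.70, 5.60 and 4.31 in large-follicle replicates 1, 2 and 3 and 4.23, 4.12 and 5.21 in small-follicle replicates 1, 2 and 3, and CD68 read 6.06, 4.82 and 4.60 against 3.98, 3.97 and 5.16. CSF1R read 7.10, 5.86 and 6.14 against 6.11, 6.20 and 6.13, and PTPRC, the pan-leukocyte CD45, 3.83, 3.45 and 3.43 against 3.60, 3.28 and 3.59. These last 4 markers overlap between groups, and all 6 peak in large-follicle replicate 1. Not every leukocyte marker had this order. Among large-follicle arrays the lymphocyte markers CD3D (4.42, 4.49 and 4.55), NKG7 (4.94, 5.02 and 5.19), GZMB and CD8A were highest in replicate 3. PRF1, of cytotoxic lymphocytes, was separated the other way at -0.28 without a call. The part of leukocytes in the interferon differences was not tested. With the mean of the leukocyte markers as a covariate, limma called 5 of 36 members higher (3.4% of all genes), ISG15 (2.49), IRF9 (1.65), MX1 (1.62), TRIM25 (1.11) and PARP9 (1.00), and the median difference of the members was 0.32, against 0.31 without it.

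A sign of RNA quality differed between the groups. An index of 3′ over 5′ signal (the log2 difference, averaged over 6 bovine control transcripts) was 2.15, 1.77 and 2.01 in large-follicle replicates 1, 2 and 3 and 2.67, 2.53 and 2.16 in small-follicle replicates 1, 2 and 3. The groups do not overlap, and small-follicle replicate 1, the lowest array for the interferon members, has the highest index. With the index as a covariate limma called 0 of 36 members and 0.623% of all genes, with 8 members higher and 1 lower at an unadjusted p under 0.05. The median difference of the members was then 0.28, and 30 of 36 were positive. Over the 10 genes called without it, the median difference went from 0.98 to 0.86 and the median SE from 0.19 to 0.32. ISG15 was at 2.10 ± 0.76, IRF9 at 1.42 ± 0.30 (adjusted p = 0.0768) and TRIM25 at 0.93 ± 0.20 (adjusted p = 0.0798). Because the index is apart between the groups on these 6 arrays, the parts of RNA quality and follicle size cannot be told apart. The part of RNA quality in these differences was not tested.

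**Figure D5:**
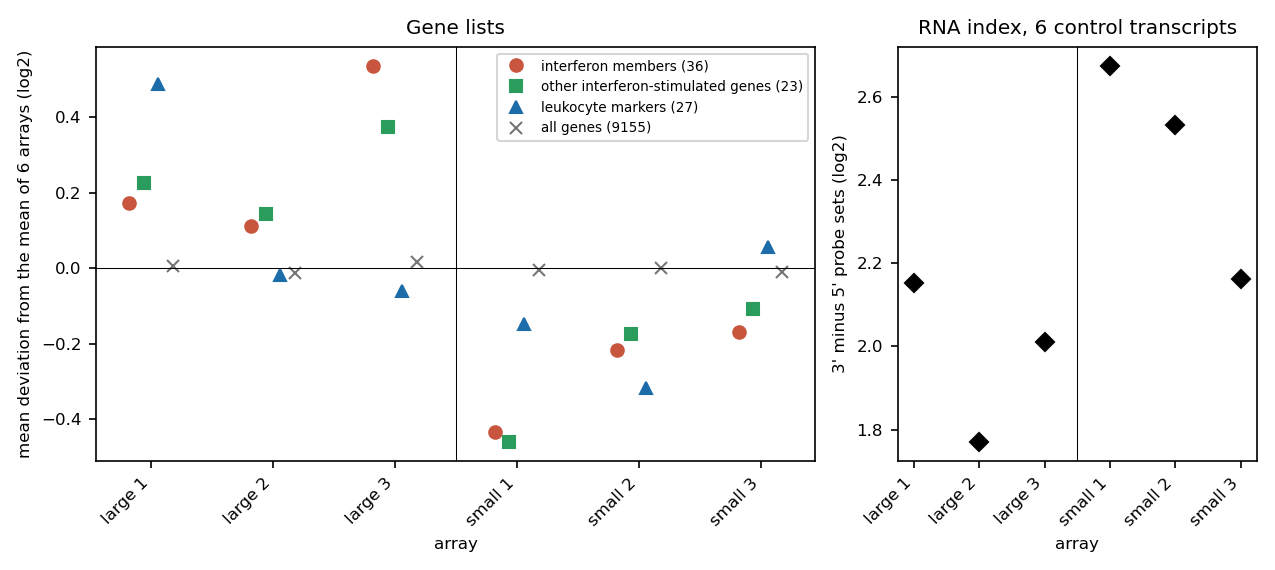
Left, the mean deviation from the mean of 6 arrays (y axis, log2) on each array (x axis) for the interferon members, other interferon-stimulated genes, leukocyte markers and all genes. Right, the 3′-minus-5′ index on each array (log2). Interferon genes peak in large-follicle replicate 3 at 0.54 and leukocyte markers in large-follicle replicate 1 at 0.49, while the index is highest in small-follicle replicate 1 at 2.67.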

How the data were processed

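Each of 6 arrays has 1 deposited log2 signal per probe set. The submitters' processing notes name RMA, which corrects background, normalizes by quantiles and summarises probes, as the authors' method, without software or settings. The array medians lie between 5.64 and 5.68. After 112 control probe sets were left out, 24016 remained, of which 13292 carry 1 gene symbol, 86 several and 10638 none. Identifiers were matched to RefSeq names for 13263. RMA gives no detection call, and array number limits the precision.

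All tested probe sets entered 1 limma 3.58.1 model under R 4.3.3, without a block and with eBayes moderation towards a constant prior. Tests were 2-sided, and calls needed a Benjamini-Hochberg adjusted p under 0.05. A gene was read from its probe set with the highest mean. Values per array are given for members that were called or whose groups do not overlap, and for a fixed set including STAT2, MX2 and the receptors. Pathway lists are given by their called genes and up to 3 further genes with the smallest p, leukocyte markers by the called genes and PTPRC, CD14, CD68 and CSF1R. HERC5, PRF1, CD3D, NKG7, GZMB, CD8A and the theca markers named were chosen after their values were seen. The members and lists were chosen with earlier results of these data known. Alternatives covered normalization, filters, priors, probe set choice, covariates, a replicate block and leaving out arrays. The procedure was tested on simulated data. Plots come from matplotlib 3.10.9 under python 3.11.15.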

Additional observations from a re-analysis of the deposited data

How the results depend on the processing

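Over the alternatives other than the thresholds of 0.01 and 0.1, values of single members kept direction and side of the threshold in 561 cases. They lost a call in 48, gained one in 10 and reversed in 10. Only the 10 called members could lose a call, and the 561 include members that stayed without one. TRIM25, IRF9 and PARP9 kept their call in 17 of 18 alternatives each, and MX1 in the fewest, 9 of 17. Called members numbered 10, and 9 to 12 under quantile or cyclic loess normalization, array weights, either signal filter, without probe sets that can bind several transcripts, or with the mean of a gene's probe sets, and 8 under a trended robust prior. They were 4 to 10 with 1 array left out, 2 at a threshold of 0.01, 0 after adjustment for the RNA index, 5 with leukocyte markers as a covariate and 5 without large-follicle replicate 3 and small-follicle replicate 1, a setting chosen after seeing the data. In the same order, other pathway genes called higher (15) were 8 to 15, 5, 0 (16 at an unadjusted p under 0.05), 6 and 9. Probe sets called higher (1374) were 787 to 1142, 528, 99, 644 and 644, and those called lower (1720) were 828 to 1337, 535, 116, 699 and 717. Among these settings, pathway genes were called lower at a threshold of 0.1, with the filter at the median and with the trended robust prior (1 each).

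The members' median difference of 0.31 was 0.43 with the filter at the lower quartile, 0.44 at the median and 0.24 to 0.40 with 1 array left out, and that of leukocyte markers (0.16) was 0.40 with the filter at the median, where fewer genes remain. With the index as a covariate the sign turned in DTX3L (-5e-04), HERC6 (-0.0082), MX2 (0.17), PSMB8 (-0.072), STAT2 (-0.012) and UBE2L6 (-0.15). Without large-follicle replicate 3 and small-follicle replicate 1 it turned in PSMB8 (-0.035), PSMB9 (-0.025) and UBE2L6 (-0.005). MX2 ran from -0.16 to 0.047 with 1 array left out. None of these was called in these fits, and the cause was not tested.

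The groups share replicate numbers, and deviations from the group means correlated at -0.0019, -0.054 and -0.34 between arrays of the same number. With 3 arrays a group these values cannot exclude pairs, and the main model took none. For the 10 members called by the main model, the median SE was 0.19, and 0.16 with a replicate block. With a replicate block 11 members were called, 8 of them shared, IFIT5 and MX1 were not, and IFI27, UBA7 and IRF2 were added. Other pathway genes called higher were then 9, and probe sets 930 higher and 1034 lower. With 3 pools a group and no detection call, low signals bound no expression level.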
